A study of Homo sapiens with 12 samples.

Results

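The kinases described here are 9 human genes that act downstream of calcium and calmodulin or are built like such kinases: CAMK1D, CAMK4, the CaMKII genes CAMK2B, CAMK2D and CAMK2G, the upstream kinases CAMKK1 and CAMKK2, and the doublecortin-like kinases DCLK1 and DCLK2. They were read by symbol from a table of 49651 genes with counts. CAMK1D and DCLK1 were chosen by their measured falls in these same libraries, so their differences are given as a description with no test. The other 7 were taken by family name, with earlier results of these data known. Further genes of these families, CAMK1, CAMK1G, PNCK, CAMK2A and DCLK3, were not among them and are described below. At least 1 read was counted for all 9, and 8 of them were among the 14704 genes deep enough to be tested. CAMK2B was not, and DCLK1 passed the filter on low counts only through its control libraries.

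The cells were D283, an established human medulloblastoma line grown in a DMEM-based medium. The controls are labelled as scrambled, and the other group, called inactivated below, had genetic inactivation of the tyrosine kinase genes ABL1 and ABL2 by a method the sources used here do not give. Messenger RNA was sequenced as 50 bp paired-end reads from 3 libraries of each group, each on 2 lanes whose counts were summed. The labels do not state separate cultures or clones for the 3 libraries within a group, so the p-values reflect the spread among libraries, which may be technical.

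Calcium that enters a cell binds calmodulin, and calcium-loaded calmodulin opens the catalytic cleft of the calmodulin-dependent kinases. The upstream kinases CaMKK1 and CaMKK2 then phosphorylate CaMKI and CaMKIV in their activation loops, and CaMKK2 also phosphorylates AMPK. CaMKII needs no upstream kinase: its subunits assemble into holoenzymes and phosphorylate each other, which lets the enzyme stay active after calcium has fallen. Doublecortin-like kinases join microtubule-binding doublecortin domains to a kinase domain of the CaM kinase type and are known from migrating and differentiating neurons.

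Libraries held 33505903 to 49034159 counts, at which 3 counts, the most that a count of 0 allows, correspond to 0.0604 to 0.0903 CPM, a unit that scales each count to its library's total; such floors cover counting error only. Levels below are CPM after trimmed-mean (TMM) scaling, as mean ± SD of 3 libraries. ABL1 fell from 153 ± 4.82 to 61.8 ± 0.620 CPM and ABL2 from 138 ± 5.58 to 104 ± 7.58 CPM, with adjusted p of 5.37e-15 and 1.29e-06 by edgeR's quasi-likelihood test with Benjamini-Hochberg adjustment. Of the 6 medulloblastoma markers, BARHL1 was at 0 counts in every library, and the other 5 were tested. OTX2 fell from 829 ± 16.1 to 665 ± 11.4 CPM, NEUROD1 from 28.5 ± 1.51 to 17.8 ± 1.06 CPM and EOMES from 0.568 ± 0.107 to 0.122 ± 0.0166 CPM. EOMES passed the filter on low counts only through its control libraries. MYC, at 481 ± 19.2 CPM in control and 526 ± 29.1 CPM in inactivated libraries, rose, but its groups overlapped and the call was lost without control replicate 1 or 2 or inactivated replicate 1 or 3 (adjusted p of 0.0831 to 0.136). ZIC1 did not pass, at 105 ± 5.81 and 109 ± 3.90 CPM. Their sum was 1400 to 1490 CPM in control and 1270 to 1350 CPM in inactivated libraries. Defining markers of other brain cell types were at or near 0 (MOG, MAG and AIF1 at 0, GFAP at 1 count in control and 3 in inactivated libraries), while some marker sums moved with the groups. The 4 astrocyte markers summed to 324 to 327 CPM in control and 118 to 123 CPM in inactivated libraries, most of it GJA1, with SLC1A2 the only other member tested, and both fell. The 4 endothelial markers summed to 4.12 to 4.45 and 9.65 to 11.0 CPM, with KDR the only riser, the 5 fibroblast markers to 42.7 to 46.2 and 33.4 to 36.9 CPM, and the 4 leukocyte markers to 0.591 to 0.963 and 0.710 to 1.35 CPM. The part of these markers in the results below was not tested, and in bulk RNA fewer cells of a type and less RNA per cell cannot be told apart.

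Most of these kinases had less mRNA in the inactivated cells. CAMK1D and DCLK1, the genes chosen by their falls, were lower by 88.9% and 96.7%. Of the 6 tested kinases taken by family name, CAMK2D, CAMK4, CAMKK2, CAMK2G and DCLK2 fell, CAMKK1 did not pass the test, and the log2 fold change was negative in all 6. Among all 14704 genes tested, 59.3% changed, 29.7% lower and 29.6% higher, and the groups did not overlap in 63.2%; because the members were chosen with this contrast in view, nothing is read from their 5 of 6 lower and 5 of 6 without overlap against these shares. Their median log2 fold change was -0.37, against 0.00307 for all genes tested. A log2 fold change of -1 or below was found in 955 tested genes, which is 6.49%.

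**Figure D1:**
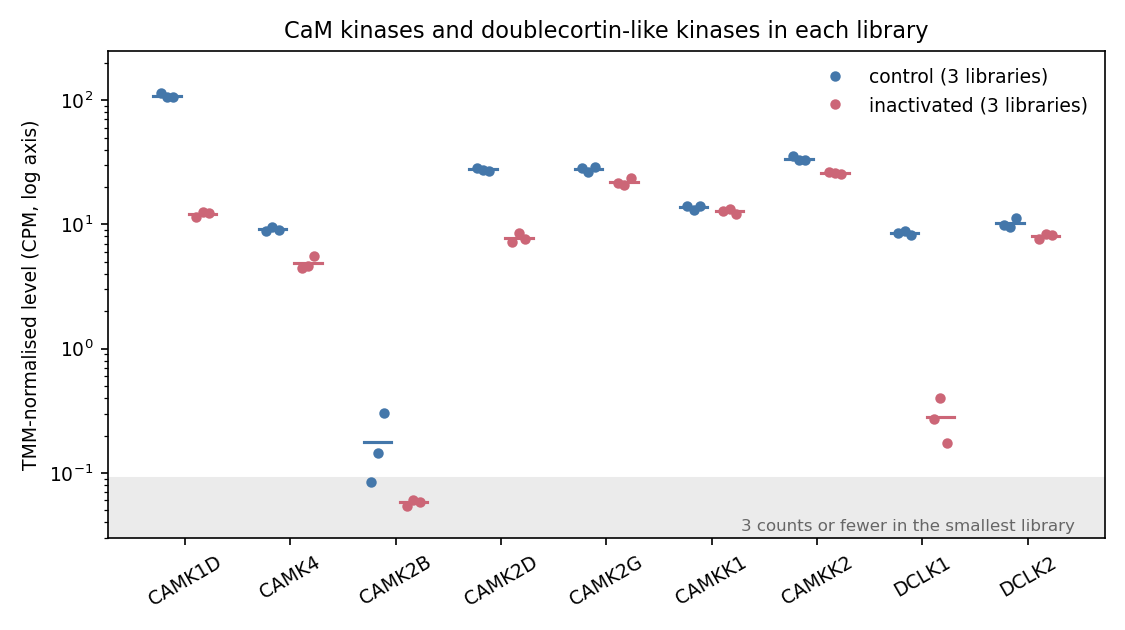
Level of each kinase in each of the 6 libraries as TMM-scaled CPM on a log axis; points are libraries, bars are group means, and the grey band marks 3 counts or fewer in the smallest library. CAMK1D, DCLK1, CAMK2D and CAMK4 separate widely between the groups, CAMKK1 overlaps, and CAMK2B lies at or near the band.

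The DNA before some start sites of CAMK1D, DCLK1, CAMK2G and CAMKK1 is shown, as examples of windows with 0 or 1 GC box and with more. A link between GC boxes and the fold changes was not tested. CAMKK2, which fell, had 8 in its window, and the inner CAMKK1 start, not shown, had 0. RefSeq start sites (GRCh38.p14) were available for all 9 genes, with more than 1 for DCLK1, CAMK4 and CAMKK1. The 250 bases before each start were searched on both strands for the GC box GGGCGG, the cyclic AMP response element TGACGTCA and its shorter core TGACG, which the full element contains, the E-box CACGTG and the TATA box TATAAA. Of 35116 RefSeq windows of the same length, 42.6% held a GC box, 1.65% the full response element, 21.2% its core, 6.34% the E-box and 10.7% the TATA box. The windows of CAMK2G, CAMKK2 and the outer CAMKK1 start held 9, 8 and 4 GC boxes, counting overlapping matches, with GC contents of 84.8%, 82.8% and 82% against a median of 58.0%. Those of CAMK1D, CAMK2D and the outer DCLK1 start held 0 GC boxes, with GC contents of 52.4%, 67.6% and 54.0%. The other windows held 2 for DCLK2, 3 for CAMK2B, 1 and 0 for the inner DCLK1 starts, 0 for the inner CAMKK1 start and 0, 0 and 5 for the 3 CAMK4 starts. The core of the response element occurred only before the innermost of 3 DCLK1 starts, and no window held the full element, the E-box or the TATA box. Parts of several searched windows lie in annotated exons. These cover 189 of the 250 bases for CAMK2D, 171 for DCLK2 and 194 for the innermost DCLK1 start. For the CAMK4 start with 5 GC boxes they cover all 250. Sequences are 5′ to 3′, capitals mark GC boxes in either orientation, and the CAMK2G window is cut where annotated exons begin, which leaves 214 bases.
CAMK1D, chr10:12388732-12388981, forward strand: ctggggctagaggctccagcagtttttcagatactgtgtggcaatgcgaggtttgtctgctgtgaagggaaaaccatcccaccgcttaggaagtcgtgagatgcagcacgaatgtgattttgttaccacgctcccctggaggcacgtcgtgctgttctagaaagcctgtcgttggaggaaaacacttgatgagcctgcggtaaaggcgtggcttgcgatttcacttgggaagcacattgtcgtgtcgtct
DCLK1, outer start, chr13:36131940-36132189, reverse strand: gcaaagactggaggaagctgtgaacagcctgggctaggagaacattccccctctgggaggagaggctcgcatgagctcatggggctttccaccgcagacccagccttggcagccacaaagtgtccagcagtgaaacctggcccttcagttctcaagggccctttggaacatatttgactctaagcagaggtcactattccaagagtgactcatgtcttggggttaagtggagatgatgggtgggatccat
DCLK1, inner start, chr13:36131383-36131632, reverse strand: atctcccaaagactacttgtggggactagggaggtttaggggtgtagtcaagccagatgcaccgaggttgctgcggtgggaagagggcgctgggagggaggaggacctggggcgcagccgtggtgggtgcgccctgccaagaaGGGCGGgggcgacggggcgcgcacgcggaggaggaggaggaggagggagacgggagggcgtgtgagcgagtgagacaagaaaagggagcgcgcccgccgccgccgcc
CAMK2G, chr10:73874592-73874805, reverse strand: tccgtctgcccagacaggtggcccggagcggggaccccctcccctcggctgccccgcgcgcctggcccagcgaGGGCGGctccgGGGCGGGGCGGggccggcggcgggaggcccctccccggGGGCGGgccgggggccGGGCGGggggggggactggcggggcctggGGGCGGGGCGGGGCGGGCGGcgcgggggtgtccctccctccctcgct
CAMKK1, outer start, chr17:3893054-3893303, reverse strand: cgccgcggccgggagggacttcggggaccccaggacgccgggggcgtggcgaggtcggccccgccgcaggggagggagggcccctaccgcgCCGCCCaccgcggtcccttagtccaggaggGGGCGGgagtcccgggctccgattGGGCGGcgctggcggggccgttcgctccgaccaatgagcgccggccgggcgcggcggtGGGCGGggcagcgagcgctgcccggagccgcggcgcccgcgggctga
The CAMK1D window belongs to a start inside the gene, while the count table places the gene's outermost start at position 12349547. The CAMKK2 and CAMK2B windows also belong to inner starts, with the outermost starts at positions 121297819 and 44326013. Counts per gene cannot tell start sites apart, and a match of letters does not show a bound site.

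CAMKK2 mRNA fell modestly and CAMKK1, its paralog in the same role, did not pass the test. CAMKK2 (chr12:121237692-121297819, reverse strand) was at 35.8, 32.8 and 33.2 CPM in the control libraries and at 26.4, 25.8 and 25.6 CPM in the inactivated libraries. Every inactivated library lay below every control library, and the mean fell by 23.5%, a log2 fold change of -0.39 ± 0.055 (SE, 95% interval -0.50 to -0.27, edgeR adjusted p = 5.79e-06). CAMKK1 (chr17:3860315-3893053, reverse strand) had 14.1, 13 and 14 CPM in control and 12.8, 13.4 and 12.2 CPM in inactivated libraries. The groups overlapped, and the log2 fold change of -0.10 ± 0.071 (SE) had a 95% interval from -0.25 to 0.05 (edgeR adjusted p = 0.244). The difference in fold change between CAMKK1 and CAMKK2 was not tested. Counted per kilobase of exon, so that genes can be set beside each other, the upstream kinases summed to 8.69 ± 0.374 CPM per kb in control and 7.15 ± 0.167 in inactivated cells. CAMKK2 made up 63.8% to 65.5% of that sum in control and 59.0% to 61.1% in inactivated libraries.

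CAMK1D and CAMK4, substrates of these upstream kinases, were both lower, CAMK1D by far the more. CAMK1D encodes CaMKI delta, a cytoplasmic kinase of the family that CaMKK activates; the gene spans chr10:12349547-12835545 on the forward strand. Its control libraries held 4042, 3723 and 3539 counts, which are 114, 107 and 106 CPM. Its inactivated libraries held 420, 623 and 422 counts, which are 11.5, 12.5 and 12.3 CPM. The libraries of each group lay close together and the groups were far apart, with means of 109 ± 3.97 and 12.1 ± 0.566 CPM, 9.0-fold lower in inactivated cells. The log2 fold change was -3.17 ± 0.054 (SE, 95% interval -3.28 to -3.05), the 126th lowest of 14704. In all 14 other settings of the processing it lay between -3.19 and -3.13.

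CAMK4 encodes CaMKIV, a kinase found largely in the nucleus that phosphorylates the transcription factor CREB and is abundant in cerebellar granule neurons. It lies at chr5:111223583-111494886 on the forward strand. Control libraries had 8.80, 9.5 and 9.09 CPM and inactivated libraries 4.48, 4.61 and 5.55 CPM. The groups did not overlap, and the mean fell by 46.5% (log2 fold change -0.91 ± 0.099 SE, edgeR adjusted p = 1.94e-07).

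The nearest relative of CAMK1D, CAMK1, also fell, from 21.4 ± 0.641 to 14.2 ± 0.803 CPM (log2 fold change -0.59 ± 0.065 SE, edgeR adjusted p = 2.10e-07). CAMK1G had 0 counts in every library, which allows up to 3 counts in each, and PNCK, the remaining CaMKI gene, had 17 counts in control and 4 in inactivated libraries and was not tested. Per kilobase, the CaMKI genes summed to 22.5 ± 0.672 CPM per kb in control and 10.1 ± 0.474 in inactivated cells, a drop of 55.1%. CAMK1D took 38.0% to 39.1% of that sum in control and 8.63% to 10.3% in inactivated libraries, and CAMK1 went from 60.8% to 61.8% up to 89.6% to 91.2%. On this scale most of the CaMKI mRNA in inactivated cells was CAMK1. Without division by length CAMK1D, whose exons sum to 12528 bases against 1560 for CAMK1, made up 83.5% of CaMKI counts in control and 45.9% in inactivated cells on average, so the order of the pair in control depends on the scale.

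Of the CaMKII genes, which encode interchangeable subunits of a holoenzyme, CAMK2D fell strongly and CAMK2G weakly. CAMK2D (delta subunit, chr4:113451032-113761738, reverse strand) had 28.7, 27.5 and 27.1 CPM in control and 7.19, 8.56 and 7.62 CPM in inactivated libraries. All inactivated libraries were far below all control libraries, and the mean fell by 72.0%, which is 3.57-fold (log2 fold change -1.83 ± 0.072 SE, 95% interval -1.98 to -1.67, edgeR adjusted p = 8.59e-14). CAMK2G (gamma subunit, chr10:73812501-73874555, reverse strand) had 28.5, 26.5 and 29.1 CPM in control and 21.5, 20.8 and 23.8 CPM in inactivated libraries. The groups again did not overlap, but the mean fell by only 21.3% (log2 fold change -0.35 ± 0.063 SE, 95% interval -0.48 to -0.22, edgeR adjusted p = 0.000103). The intervals of CAMK2D and CAMK2G do not meet; their difference itself was not tested.

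CAMK2B, the beta subunit gene of neurons (chr7:44217154-44326013, reverse strand), had 3, 5 and 10 counts in control and 2, 3 and 2 counts in inactivated libraries, at or near the floor. It was not tested and no fold is given. CAMK2A, the alpha subunit gene of forebrain neurons, was also low and fell from 1.17 ± 0.231 to 0.763 ± 0.0976 CPM (log2 fold change -0.61 ± 0.23 SE, edgeR adjusted p = 0.0305). That call was lost with DESeq2 (adjusted p = 0.0871), on lane 2 alone (0.230), without control replicate 1 (0.183) and without inactivated replicate 1 (0.0976) or 3 (0.0549). Both subunit genes best known from neurons were thus scarce in this line, and delta and gamma made up nearly all CaMKII mRNA.

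The make-up of CaMKII mRNA shifted from delta and gamma at near parity to mostly gamma. Per kilobase, CAMK2D was 50.2%, 51.1% and 48.4% of the 4 subunit genes in the control libraries and 25.5%, 29.4% and 24.7% in the inactivated libraries. CAMK2G was 46.2%, 45.8% and 48.4% in control and 71.1%, 66.4% and 71.7% in inactivated libraries. Neither share overlapped between groups. The sum over the 4 genes went from 8.13 ± 0.257 to 4.29 ± 0.203 CPM per kb, a drop of 47.2%. These are mRNA shares, and subunit protein was not measured.

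**Figure D2:**
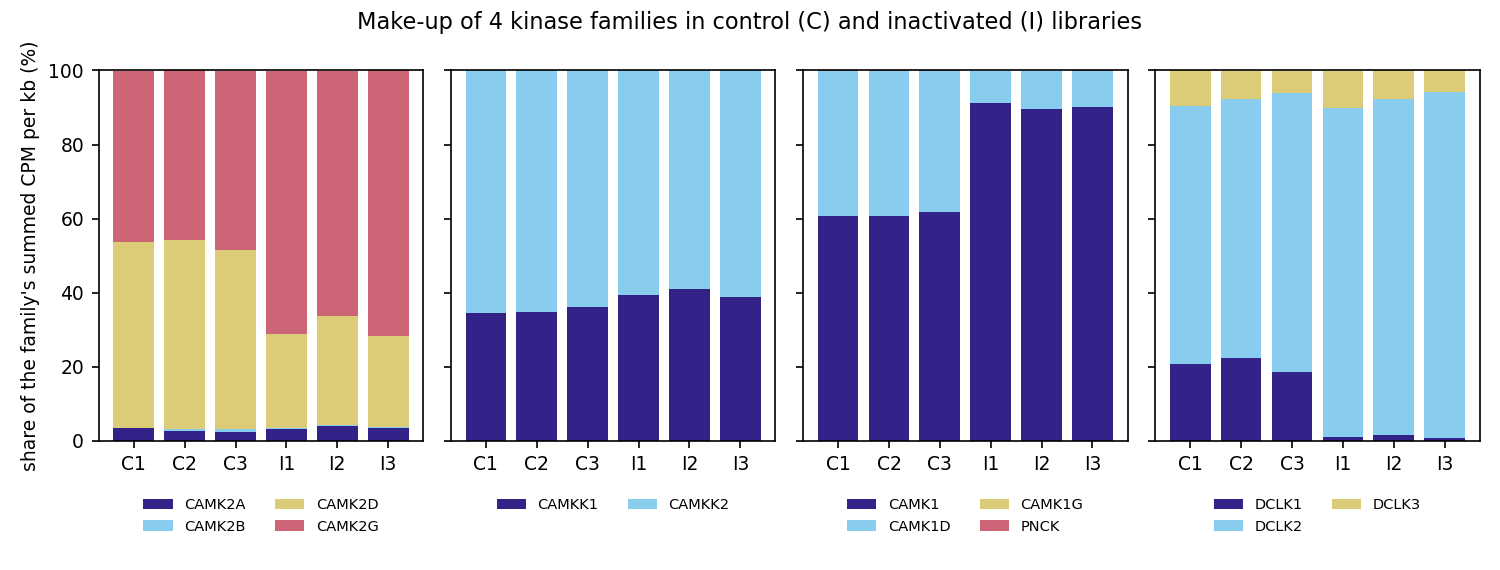
Share of each gene in the summed CPM per kb of its family (percent), for the CaMKII, CaMKK, CaMKI and doublecortin-like kinase genes, 1 bar per control (C1 to C3) and inactivated (I1 to I3) library. CAMK2G holds 45.8% to 48.4% of CaMKII in control and 66.4% to 71.7% in inactivated libraries, and CAMK1 and DCLK2 take larger shares of their families in inactivated libraries.

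Among the doublecortin-like kinases, DCLK1 mRNA was nearly lost and DCLK2 fell a little. DCLK1, a microtubule-binding kinase of migrating and growing neurons, lies at chr13:35768652-36131939 on the reverse strand. Control libraries held 304, 310 and 271 counts and inactivated libraries 10, 20 and 6 counts. In CPM these are 8.55, 8.92 and 8.15 against 0.273, 0.403 and 0.175, so each inactivated library was above the floor and far below every control library. The means were 8.54 ± 0.385 and 0.284 ± 0.114 CPM, 30.1-fold lower, with a log2 fold change of -4.83 ± 0.18 (SE, 95% interval -5.20 to -4.45) that was the 40th lowest of 14704. Over the other settings it ranged from -5.22 to -4.61. DCLK1 has transcripts with and without the doublecortin domains, which counts per gene do not separate.

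DCLK2 (chr4:150078445-150257438, forward strand), its closest relative, had 9.87, 9.5 and 11.3 CPM in control and 7.60, 8.44 and 8.18 CPM in inactivated libraries. The groups did not overlap, and the mean fell by 20.9% (log2 fold change -0.33 ± 0.086 SE, edgeR adjusted p = 0.00267). On the reads of lane 1 alone the same test gave -0.29 and an adjusted p of 0.0608, past the threshold no longer. DCLK3, a kinase named with this family, was low and fell from 1.35 ± 0.310 to 0.846 ± 0.215 CPM (log2 fold change -0.66 ± 0.24 SE, edgeR adjusted p = 0.0242). That call was lost with DESeq2 (adjusted p = 0.0562), on lane 1 (0.0615) or lane 2 alone (0.0980), without control replicate 1 (0.177) and without inactivated replicate 3 (0.103). Per kilobase, DCLK1 made up 18.7% to 22.5% of the 3 genes in control and 0.688% to 1.49% in inactivated libraries, and DCLK2 69.6% to 75.3% and 88.9% to 93.6%. Without division by length DCLK1, whose exons sum to 13684 bases against 4694 for DCLK2, made up 39.8% to 45.3% in control and 1.95% to 4.14% in inactivated libraries. The family sum went from 3.03 ± 0.143 to 1.89 ± 0.0843 CPM per kb.

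**Figure D3:**
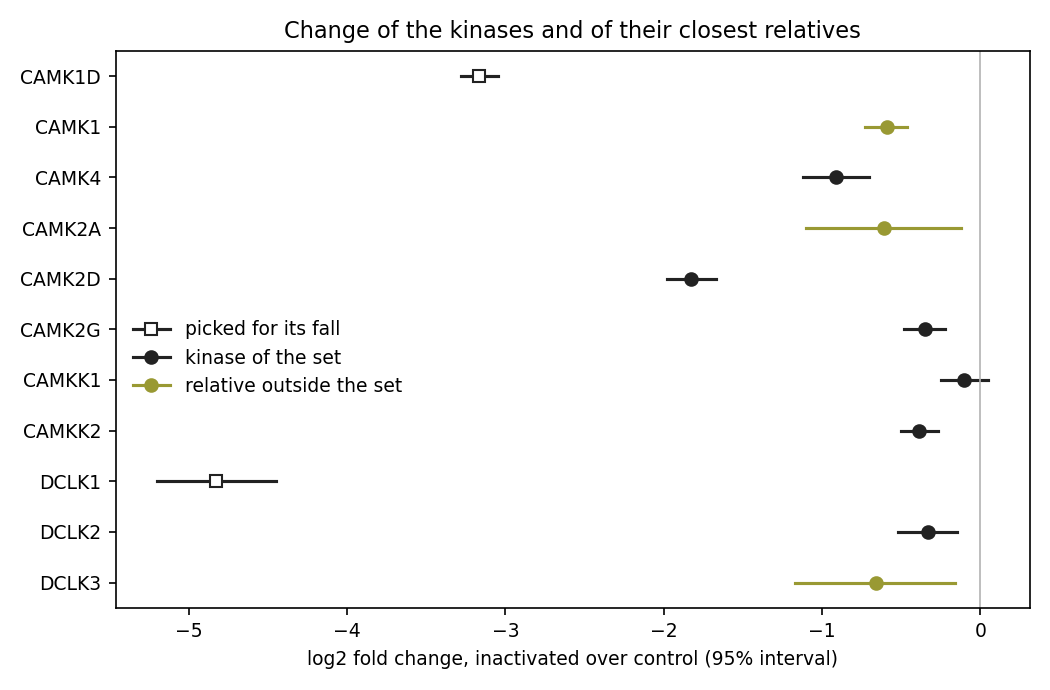
log2 fold change of inactivated over control for the kinases tested and their closest relatives, with 95% intervals from the fit; open squares are the genes chosen by their falls, black circles the other kinases and olive circles the relatives. Squares carry intervals as a description only; among the circles, only the interval of CAMKK1 reaches across 0.

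The order of the kinases by level per kilobase changed between the groups. In control cells CAMK1D was the most abundant at 8.71 ± 0.317 CPM per kb, followed by CAMKK2 at 5.63 ± 0.274, CAMK2D at 4.05 ± 0.125, CAMK2G at 3.81 ± 0.189, CAMKK1 at 3.05 ± 0.134 and DCLK2 at 2.17 ± 0.197. CAMK4 at 0.752 ± 0.0289, DCLK1 at 0.624 ± 0.0281 and CAMK2B at 0.0361 ± 0.0229 closed the order. Neighbours in it did not overlap, although CAMK2D and CAMK2G nearly touched, with a difference of 0.249 between their means. In inactivated cells CAMKK2 led at 4.31 ± 0.0699 CPM per kb, before CAMK2G at 3.0 ± 0.213 and CAMKK1 at 2.85 ± 0.136, whose ranges overlapped. DCLK2 at 1.72 ± 0.0920 and CAMK2D at 1.14 ± 0.102 came next. CAMK1D was then sixth at 0.967 ± 0.0452 CPM per kb, above CAMK4 at 0.402 ± 0.0480, DCLK1 at 0.0207 ± 0.00834 and CAMK2B at 0.0118 ± 0.0006. CAMK1, a CaMKK target outside the chosen genes, was above all of them in both groups, at 13.7 ± 0.411 and 9.12 ± 0.515 CPM per kb.

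The kinases lie on 7 chromosomes, and the tested genes around most of them had a median fold change near 0. Of the 44 tested genes that start within 5 Mb of the start of CAMK1D, 10 fell and 12 rose, with a median log2 fold change of -0.02 and values from -1.55 to 2.75. No gene in that window was as low as CAMK1D. Its nearest tested protein-coding neighbours were CDC123 at -0.03 and NUDT5 at 0.31 on the side of lower coordinates and CCDC3 at -1.04 and OPTN at 0.26 on the other. For DCLK1 the window held 31 tested genes with a median of -0.02 and values from -2.85 to 1.00, of which 11 fell and 8 rose. MAB21L1 at -0.45 and SPART at -0.79 stood nearest among the well expressed neighbours of DCLK1.

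The windows of CAMK2D and CAMK4 had the lowest medians of the 9. The CAMK2D window held 27 tested genes with a median of -0.17, of which 14 fell, 3 rose and 3 were as low as CAMK2D or lower. The CAMK4 window held 31 with a median of -0.22, of which 17 fell, 4 rose and 4 were as low as CAMK4 or lower. The part of position in their falls was not tested. Medians around CAMK2B, CAMK2G, CAMKK1, CAMKK2 and DCLK2 lay between -0.03 and 0.05, with 13 genes lower and 7 higher around CAMK2B, 23 and 17 around CAMK2G, 26 and 33 around CAMKK1, 36 and 26 around CAMKK2 and 6 and 9 around DCLK2. CAMKK1 is on chromosome 17, where the median over 823 tested genes was 0.37, but its own window of 132 genes had a median of 0.05. Other genes of the table lie inside 3 of the kinase genes, CAMK1D, CAMK2B and DCLK1, but none shares exon bases with them and none exceeded 5 counts over all libraries.

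**Figure D4:**
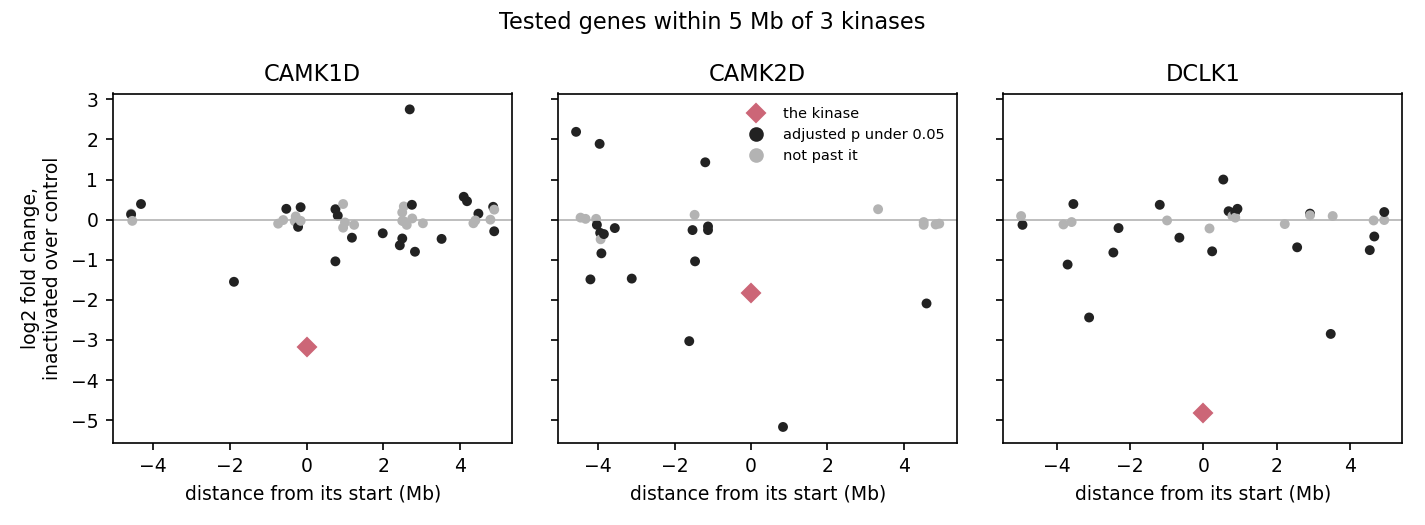
log2 fold change of tested genes by the distance of their start from that of CAMK1D, CAMK2D and DCLK1 (Mb); the diamond is the kinase, black points passed an adjusted p of 0.05 and grey points did not. CAMK1D and DCLK1 lie below every gene of their windows, while 3 genes near CAMK2D are as low or lower.

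Genes with the profile most like that of CAMK1D and DCLK1 were sought among 9819 tested genes with at least 5 CPM in control, by Euclidean distance of log2(CPM + 0.5) centred on the control mean over the 6 libraries. Nearest to CAMK1D were GAS1 at a distance of 0.206, NALF1 at 0.211 and FBXO32 at 0.230. GAS1, a membrane protein that binds hedgehog ligands, went from 14.9 ± 0.667 to 1.38 ± 0.0461 CPM, NALF1 from 67.9 ± 3.37 to 7.62 ± 0.598 CPM, and FBXO32, a ubiquitin ligase subunit, from 67.1 ± 1.1 to 7.52 ± 0.878 CPM. Nearest to DCLK1 were L3MBTL4 at 0.181, UGT8 at 0.280 and FGF13 at 0.294. L3MBTL4 went from 6.87 ± 0.612 to 0.141 ± 0.0742 CPM, UGT8, an enzyme of myelin galactolipid synthesis, from 8.75 ± 0.387 to 0.235 ± 0.0413 CPM, and FGF13, a growth factor homologue that binds sodium channels and microtubules, from 8.90 ± 0.393 to 0.340 ± 0.0171 CPM. They were picked for this likeness, so the values are descriptive.

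The genes around the kinases in the pathway are given as 11 lists, whose shares of tested genes called are set here beside the 59.3% of all genes tested. The share was 52.9% for nuclear partners, 57.1% for other calmodulin-binding kinases, 63.6% for AMPK and LKB1 genes, 64.3% for CREB and calcium-induced genes and 68.4% for microtubule and migration genes, all within 10 points of that background, so these counts alone show nothing about the lists. It was 72.7% for synaptic anchors, 78.6% for calcium entry and pump genes and 91.7% for calcineurin genes. Nothing is read from these higher shares either, because the lists were chosen with earlier results of these data known. The shares include genes, among them INHBA, RCAN3, NFATC1 and ATP2A3, that passed the low-count filter only through the group where they were higher. In the lists with 5 or fewer tested genes, 5 of 5, 2 of 2 and 1 of 2 were called.

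Other calmodulin-binding and CaM kinase-like kinases included genes that fell and genes that rose. Of 14 tested among 18, 5 fell, 3 rose and 6 were not past the threshold, and the median log2 fold change was -0.21. CAMK1, CAMK2A and DCLK3 are given above. DAPK1, a death-associated kinase, fell from 42.9 ± 2.62 to 24.4 ± 1.25 CPM (edgeR adjusted p = 5.69e-10), and PSKH1 fell from 13.3 ± 1.10 to 9.52 ± 0.238 CPM (adjusted p = 3.05e-05). MYLK, the myosin light chain kinase, rose from 43.4 ± 2.08 to 65.6 ± 2.67 CPM (adjusted p = 5.60e-09), and CAMKV, a pseudokinase of this family, rose from 2.81 ± 0.172 to 5.07 ± 0.225 CPM (adjusted p = 3.77e-06).

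Calmodulin itself, the shared activator, is encoded by more than 1 gene. CALM3 was at 235, 240 and 247 CPM in control and at 302, 278 and 302 CPM in inactivated libraries and rose (log2 fold change 0.29 ± 0.044 SE, edgeR adjusted p = 1.6e-05). CALM2 fell from 629 ± 21.2 to 583 ± 8.89 CPM (adjusted p = 0.0352), a call that was lost in 6 of the 14 other settings with adjusted p of up to 0.109, including those without control replicate 2 or 3 or without inactivated replicate 2 or 3. NRGN, neurogranin, which holds calmodulin at low calcium, fell from 8.43 ± 0.765 to 6.08 ± 0.595 CPM (adjusted p = 0.000421). In all, 5 of 10 genes of this list were tested, of which 4 fell and 1 rose, and PCP4 and GAP43, which also buffer calmodulin in neurons, had 0 counts in every library.

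The inhibitors of CaMKII were scarce and the CaM kinase phosphatases changed little. CAMK2N1 had 6 and 7 counts and CAMK2N2 27 and 14 counts in all control and all inactivated libraries, and neither was tested. PPM1E was at 41.0 ± 3.03 and 40.6 ± 1.49 CPM (log2 fold change -0.01 ± 0.057 SE, edgeR adjusted p = 0.846). PPM1F fell from 31.9 ± 1.6 to 28.2 ± 0.259 CPM (adjusted p = 0.0104), a call lost on lane 1 alone (adjusted p = 0.0819) and without control replicate 3 (adjusted p = 0.0524). Of the 2 tested genes of this list of 4, 1 fell and 1 did not pass.

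PPP3CA and PPP3CB, catalytic subunit genes of calcineurin, the calcium- and calmodulin-dependent phosphatase, fell by 65.6% and 12.2%. PPP3CC, also a catalytic subunit gene, rose from a low level, with values given below. PPP3CA was at 66.8, 66.4 and 63.4 CPM in control and 22.4, 22.4 and 22.9 CPM in inactivated libraries (log2 fold change -1.54 ± 0.049 SE, edgeR adjusted p = 3.84e-15). PPP3CB, the more abundant of the pair in both groups, fell from 75.1 ± 3.24 to 65.9 ± 0.645 CPM (adjusted p = 0.00137), or from 15 to 13.1 CPM per kb against 13.8 to 4.76 for PPP3CA. The regulatory subunit gene PPP3R1 fell from 200 ± 7.36 to 164 ± 1.04 CPM (adjusted p = 7.48e-06). The calcineurin inhibitors RCAN2 and RCAN1 fell from 75.5 ± 1.49 to 56.4 ± 1.96 CPM (adjusted p = 1.49e-07) and from 6.98 ± 0.838 to 5.14 ± 0.324 CPM (adjusted p = 0.00133); the latter call was lost on lane 2 alone (adjusted p = 0.166). AKAP5, a scaffold that holds calcineurin at membranes, rose from 23.5 ± 2.08 to 39.0 ± 1.63 CPM (adjusted p = 8.12e-09). Of 12 tested among 14 genes, 6 fell, 5 rose and 1 did not pass, and the median was -0.13. PPP3CC, RCAN3 and NFATC1, named after their values were seen because they rose most in this list, went from 0.461 ± 0.113 to 4.48 ± 0.242 CPM, from 0.253 ± 0.0972 to 2.57 ± 0.209 CPM and from 0.155 ± 0.0165 to 1.43 ± 0.0836 CPM. RCAN3 and NFATC1, counted among the 5 that rose, passed the filter on low counts only through their inactivated libraries.

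Nuclear substrates and partners of these kinases moved in both directions. The class IIa histone deacetylases repress MEF2 targets and leave the nucleus when CaM kinases phosphorylate them. HDAC9 fell from 46.9 ± 0.701 to 22.1 ± 0.491 CPM (edgeR adjusted p = 1.03e-12), HDAC4 from 28.7 ± 1.5 to 15.9 ± 0.901 CPM (adjusted p = 1.09e-09) and HDAC7 from 30.3 ± 0.289 to 24.2 ± 0.470 CPM (adjusted p = 3.57e-05). HDAC5 rose from 102 ± 4.97 to 128 ± 4.51 CPM (adjusted p = 5.21e-06), and the transcription factor SRF rose from 95.2 ± 2.82 to 143 ± 1.96 CPM (adjusted p = 4.83e-10). CREB1, the classic nuclear target of CaMKIV, was at 88.9 ± 1.16 and 82.8 ± 4.36 CPM and did not pass (adjusted p = 0.0612), though it did without inactivated replicate 2 (adjusted p = 0.0185). Of 17 tested among 18 genes, 7 fell, 2 rose and 8 did not pass, and the median was -0.12.

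Of the genes that CREB and calcium signals are known to induce, 14 of 24 were tested: 8 fell, 1 rose and 5 were not past the threshold; the median log2 fold change was -0.49. EGR1, an immediate early transcription factor, was at 55.4, 51.5 and 53.0 CPM in control and 20.3, 21.7 and 21.0 CPM in inactivated libraries (edgeR adjusted p = 8.60e-14). FOS fell from 11.9 ± 0.416 to 5.57 ± 0.967 CPM (adjusted p = 3.17e-08), GADD45B from 17.9 ± 1.31 to 6.38 ± 0.667 CPM (adjusted p = 2.30e-11) and PPARGC1A, a coactivator of mitochondrial genes, from 5.09 ± 0.402 to 1.6 ± 0.117 CPM (adjusted p = 3.19e-09). JUNB rose from 31.6 ± 2.55 to 36.3 ± 2.96 CPM (adjusted p = 0.0173) although its groups overlapped, and this call was lost in 3 of the 14 other settings, on lane 1 alone, without control replicate 2 and without inactivated replicate 1 (adjusted p of 0.0866, 0.145 and 0.0883). NR4A1, PER1 and DUSP1 were among the 5 not past the threshold. NR4A1 was at 9.92 ± 1.07 CPM in control and 10.0 ± 0.695 CPM in inactivated libraries (edgeR adjusted p = 0.931). PER1 was at 22.5 ± 1.83 and 22.9 ± 1.02 CPM (adjusted p = 0.740) and DUSP1 at 10.2 ± 1.01 and 9.47 ± 0.530 CPM (adjusted p = 0.309). Many genes of this list also respond to growth factor signals, which these data do not separate from calcium.

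The genes of AMPK, the other target of CaMKK2, and of the LKB1 complex that also activates it changed in both directions. Of 11 tested among 12, 4 fell, 3 rose and 4 were not past the threshold, and the median was -0.00. The regulatory subunit gene PRKAG2 fell from 23.1 ± 1.47 to 15.8 ± 0.386 CPM (edgeR adjusted p = 5.11e-07) and the LKB1 partner CAB39L from 12.8 ± 0.767 to 8.60 ± 0.612 CPM (adjusted p = 4.76e-06). PRKAB2 rose from 34.2 ± 1.6 to 43.5 ± 2.58 CPM (adjusted p = 2.53e-05), STRADA from 28.0 ± 1.25 to 33.7 ± 1.39 CPM (adjusted p = 0.000395) and STK11, the gene of LKB1, from 41.5 ± 3.55 to 48.5 ± 1.77 CPM (adjusted p = 0.00240).

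Other genes with doublecortin domains were close to silent. DCX, doublecortin itself, had 6 counts in all control and 5 in all inactivated libraries. Of 7 such genes only RP1 and RP1L1 were tested, each of which passed the filter only through the group in which it was higher. RP1 was at 0.482 ± 0.0529 CPM in control and 0.0225 ± 0.0206 CPM in inactivated cells, and RP1L1 at 0.164 ± 0.0561 and 0.482 ± 0.190 CPM, which are 50 and 3 counts for RP1 and 17 and 56 counts for RP1L1. At these counts no direction is given for the family.

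Neuronal microtubule and migration genes, among which DCLK1 is usually counted, moved both ways. Of 19 tested among 22, 7 fell, 6 rose and 6 were not past the threshold, and the median was -0.07. The tubulin gene TUBB2B rose from 9.97 ± 0.971 to 40.0 ± 2.02 CPM (edgeR adjusted p = 1.55e-14) and CDK5R1, the activator of CDK5, from 15.4 ± 0.433 to 27.6 ± 0.600 CPM (adjusted p = 3.66e-10). DAB1, the adaptor of reelin signalling, fell from 34.2 ± 1.90 to 9.38 ± 0.936 CPM (adjusted p = 6.57e-14), RELN from 229 ± 23 to 172 ± 7.53 CPM (adjusted p = 6.06e-06) and the kinesin KIF2A from 211 ± 11.0 to 156 ± 4.69 CPM (adjusted p = 1.08e-07). PAFAH1B1, which encodes LIS1, had 139 ± 4.41 and 139 ± 6.10 CPM (adjusted p = 0.915).

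Genes for synaptic anchors and substrates of CaMKII had a median log2 fold change of -0.61 over 11 tested of 15, of which 6 fell, 2 rose and 3 did not pass. GRIN2A, an NMDA receptor subunit, was at 132, 122 and 120 CPM in control and 19.8, 22.4 and 20.9 CPM in inactivated libraries (edgeR adjusted p = 1.5e-17). LRRC7, the postsynaptic scaffold densin, fell from 9.48 ± 0.321 to 0.549 ± 0.0828 CPM (adjusted p = 1.02e-14). RASGRF2, an exchange factor that binds calmodulin, fell from 69.4 ± 3.61 to 34.3 ± 0.904 CPM (adjusted p = 2.34e-12) and SYN2, a synapsin, from 122 ± 1.98 to 79.8 ± 3.88 CPM (adjusted p = 8.15e-10). TIAM1, a Rac exchange factor, rose from 9.5 ± 0.264 to 13.5 ± 0.717 CPM (adjusted p = 7.67e-06). The scaffold gene DLG4 was at 9.25 ± 0.642 and 9.34 ± 0.690 CPM and did not pass (adjusted p = 0.850).

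Of 14 tested among 25 genes that bring calcium in or clear it, 8 fell, 3 rose and 3 were not past the threshold, and the median was -0.22. ATP2B3, a plasma membrane calcium pump, fell from 11.5 ± 0.945 to 1.33 ± 0.0839 CPM (edgeR adjusted p = 4.48e-14), while the more abundant pump gene ATP2B1 rose from 266 ± 5.98 to 296 ± 12.1 CPM (adjusted p = 0.00382). The store-operated entry genes STIM1, STIM2 and ORAI2 fell from 27.5 ± 1.41 to 21.2 ± 0.420 CPM (adjusted p = 1.90e-05), from 145 ± 3.95 to 129 ± 1.25 CPM (adjusted p = 0.00111) and from 26.7 ± 1.28 to 19.4 ± 2.01 CPM (adjusted p = 1.57e-05). ATP2A3, a pump of the endoplasmic reticulum, had 53 counts in all control and 0 in all inactivated libraries. It is counted among the 8 that fell, and it passed the filter on low counts only through its control libraries. The counts of CACNA1C are blank in the table and were not analysed here.

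**Figure D5:**
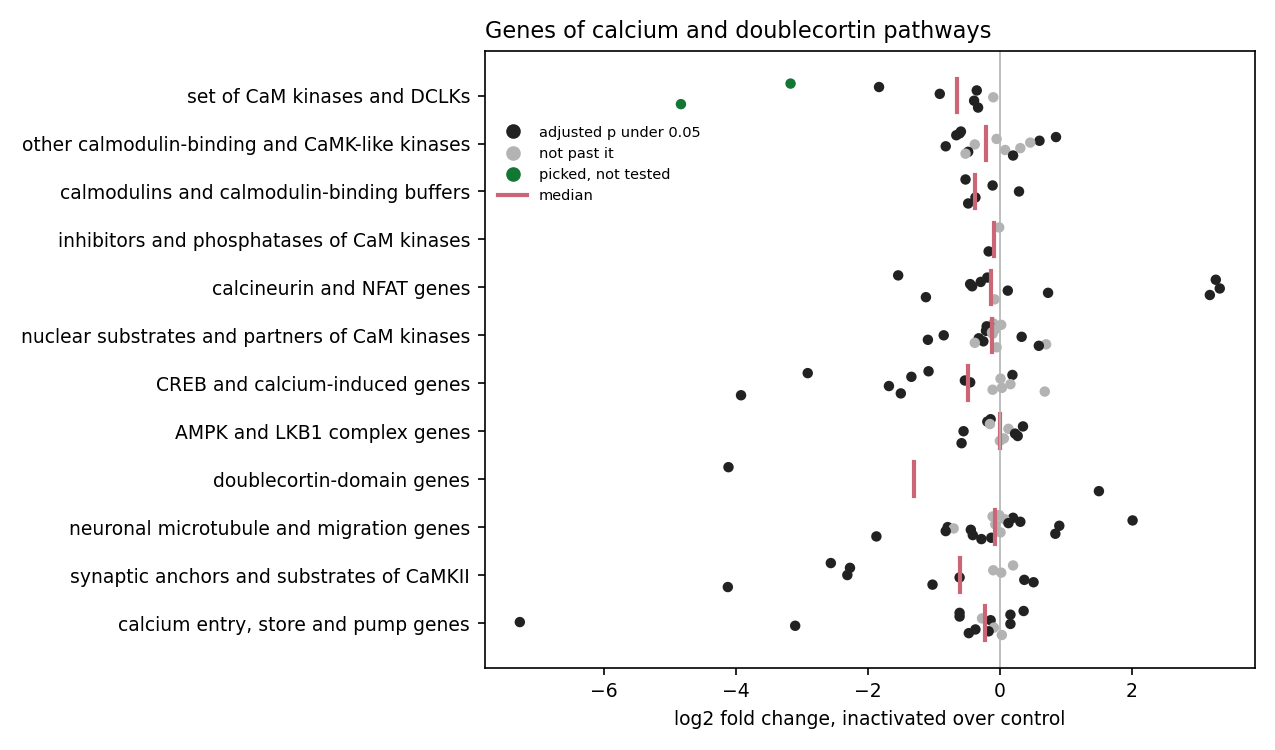
log2 fold change, inactivated over control, of each tested gene in the kinase set and in 11 pathway lists; black points passed an adjusted p of 0.05, grey points did not, green points were chosen by their falls, and red bars are medians. Medians run from -1.30 (2 doublecortin-domain genes) to near 0 (AMPK and LKB1), and the far left point is ATP2A3, drawn at a fitted value that depends on the prior count because its inactivated libraries are at 0.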

How the data were processed

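Gene counts per lane were deposited by the authors as raw whole numbers, not normalized, for 12 samples that are 6 libraries on 2 lanes. The submitters' processing notes list STAR 2.7.2b, featureCounts 1.6.3 and GRCh38.p14, beside DESeq2 1.36.0 and the read checks FastQC 0.11.9 and MultiQC 1.11. How strand and reads with several alignments were counted, which bears on paralogs, the sources used here do not give. Of 49677 genes, 26 have blank counts and 22423 had no read.

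Lanes were summed, since lanes are not replicates. Genes were filtered with filterByExpr (minimum count 10, minimum total 15), scaled by TMM and compared in a two-sided quasi-likelihood F test (edgeR 4.0.16, R 4.3.3), Benjamini-Hochberg adjusted over 14704 genes, with a threshold of 0.05. A gene is said to have risen, fallen or changed where it passed. The biological coefficient of variation was 0.0447. Chi-square per degree of freedom was 1.13 to 1.21 between lanes, 3.17 to 13.6 within groups and 86.7 to 111 between groups. Levels per kilobase divide CPM by the deposited summed exon length. The scripts were tested on simulated data.

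The members, the 11 pathway lists with 169 entries, the markers and the tests were chosen with earlier results of these data known. Of each list, up to 5 genes past the threshold with at least 5 CPM in 1 group and the lowest p are named, or up to 3 by level; further genes, such as PPP3CB and those named as not passing, not tested or low, were chosen after their values were seen. Some genes that this rule or the marker lists gave are not reported here. Alternatives, tried 1 at a time in 14 settings, were other scalings and filters, DESeq2 1.42.0, limma-voom 3.58.1, each lane alone and each library left out.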

Additional observations from a re-analysis of the deposited data

How the results depend on the processing

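Over 14 other settings, 111 values of the 8 tested kinases kept direction and, for the 6 with a test, side of the threshold and 1 did not, DCLK2 on lane 1 alone (adjusted p = 0.0608), and 0 reversed. CAMK2D ranged from -1.91 to -1.77, CAMK2G from -0.40 to -0.30, CAMK4 from -1.03 to -0.77, CAMKK2 from -0.42 to -0.34, DCLK2 from -0.39 to -0.27 and CAMKK1 from -0.14 to -0.06 in log2 fold change. Of the values of 67 other genes of the lists, markers and targets, 900 kept their call, 26 in 7 genes (CALM2, PPM1F, RCAN1, JUNB, CAMK2A, DCLK3 and MYC) lost it, and 1, CREB1 without inactivated replicate 2, gained it. Genes called in the calmodulin and buffer list numbered 3 to 5 with a library left out, the lowest without control replicate 3 or inactivated replicate 3 (5 as reported). In the inhibitor and phosphatase list they numbered 0 on lane 1 alone and 0 to 1 with a library left out (1 as reported); these settings use fewer reads or libraries, and the cause was not tested further. In the doublecortin-domain list they numbered 0 with a mean of at least 1 CPM required and 0 on either lane alone (2 as reported), where fewer genes were tested. Without division by length CAMK2G made up 49.0% of CaMKII in control and 71.9% in inactivated cells. The median log2 fold change of all genes was 0.0255 at the most, under library totals only. No paired analysis was possible because the labels give the groups no shared replicate numbers. Depth limits CAMK2B, CAMK2N1 and DCX, which lay near 3 counts per library.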
